A study of Mus musculus with 2 samples.

Results

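Schwann cells are the glia of peripheral nerve, and the RNA of 7 of their genes was read in gastrocnemius, the large calf muscle, which is crossed by motor and sensory nerve branches. The genes are Mbp, Pmp22, Prx, Drp2, Mag, Sox10 and S100b. They were chosen by symbol, with earlier results of these libraries known, and they are 7 of 55536 annotated genes. Each of the 7 matched a single gene entry. Their levels and their differences between libraries are therefore given as descriptions, with no test.

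The data are total RNA-seq of 2 samples from adult females, 8 to 10 months old. The mice were 5xFAD X Cast, strain name 5xFAD/CAST. The 5xFAD line carries mutant human transgenes under a Thy1 promoter that is active mainly in neurons, and serves in Alzheimer's disease research. CAST is an inbred strain founded from wild mice. Labels number the samples as biological replicates 1 and 2, here called library 1 and library 2, and give both the same donor identifier, so separate animals are not established and any spread may be technical. Both libraries belong to 1 group, and no control genotype or tissue was analysed here. Library 1 held 35594289 expected counts and library 2 held 34541905. The fibre genes Acta1, Ckm, Myh4 and Tnnt3 summed to 55920.5 TPM in library 1 against 64534.7 TPM in library 2, so the tissue was muscle as labelled. TPM is a transcript's share of all RNA, corrected for its length and scaled to a fixed total, and each level below is a TPM unless a count is named. Reads were assigned by 2 methods, which are called the first and the second quantifier, and values are from the first unless stated.

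A myelinating Schwann cell wraps 1 segment of an axon in many layers of membrane, and in compact myelin the layers are held together by proteins such as myelin basic protein (Mbp) and peripheral myelin protein 22 (Pmp22). At the outer surface, periaxin (Prx) and dystrophin-related protein 2 (Drp2) link dystroglycan to the cell's interior and set out the cytoplasmic channels named Cajal bands. At the inner surface, myelin-associated glycoprotein (Mag) faces the axon. The transcription factor Sox10 is needed at every stage of the lineage and, with Egr2, switches on the myelin genes, while S100b codes for a calcium-binding protein used as a Schwann cell marker.

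Pmp22 has transcripts from several starts whose levels differed between libraries, and Prx leads the outer-surface genes, so the 250 bases before 2 RefSeq starts of Pmp22 and that of Prx are shown (GRCm38.p6, the build also named mm10). All are on the plus strand of the chromosome and run 5′ to 3′. Capitals mark matches to the letters ACAAAG and ACAATG and AACAAT, which resemble Sox sites, and GTGGG and GCGTG, which are parts of Egr-type sites, searched on both strands.
Pmp22 upstream start, chr11:63128732-63128981: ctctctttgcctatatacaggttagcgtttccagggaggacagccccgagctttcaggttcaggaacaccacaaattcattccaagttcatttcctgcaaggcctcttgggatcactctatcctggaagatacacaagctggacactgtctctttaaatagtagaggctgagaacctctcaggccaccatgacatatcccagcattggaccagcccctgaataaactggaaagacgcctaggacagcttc
Pmp22 middle start, chr11:63131207-63131456: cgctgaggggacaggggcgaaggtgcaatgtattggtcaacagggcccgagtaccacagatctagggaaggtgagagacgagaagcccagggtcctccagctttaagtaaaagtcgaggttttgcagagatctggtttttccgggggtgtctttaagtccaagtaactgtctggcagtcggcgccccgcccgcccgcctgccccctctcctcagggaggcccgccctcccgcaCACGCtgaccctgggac
Prx, chr7:27499074-27499323: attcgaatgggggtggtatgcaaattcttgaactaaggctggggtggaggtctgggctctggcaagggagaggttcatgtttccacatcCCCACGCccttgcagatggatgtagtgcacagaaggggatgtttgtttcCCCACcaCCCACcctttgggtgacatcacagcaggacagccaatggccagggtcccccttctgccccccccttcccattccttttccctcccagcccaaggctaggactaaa
The upstream Pmp22 window held none of the 5 letter strings, had 48.8% G or C and 3 CpG pairs. The middle window had 61.2% G or C and 14 CpG pairs, with GCGTG on the reverse strand beginning 17 bases before the RefSeq start. That RefSeq start is at 63131457, whereas the middle start whose levels are given below is annotated at 63131512, so the window does not adjoin it. Over 32851 windows of 250 bases the medians were 52.4% G or C and 6 CpG pairs, and the middle window was the more CpG-rich of this pair. The Prx window held GTGGG on the reverse strand at 161, 112 and 105 bases before the start, and GCGTG at 159 bases, which overlaps the match at 161. GTGGG was found in 56.3% of all windows and GCGTG in 28.2%, and any of the 3 Sox-like strings in 29.6%. Of the 3 Mag windows, 2 overlap and share 1 and the same ACAAAG match, on the reverse strand, and ACAAAG occurred in 16.5% of all windows on either strand. GTGGG lay on the forward strand in the Mag windows before the starts 30914863 and 30914321. The S100b window and the Pmp22 windows before the starts 63132569 and 63132803 held none of the 5 strings. RefSeq windows matched by symbol for 4 of the 7 genes: Mag, Pmp22, Prx and S100b. A match of letters is a description and shows no binding.

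The proteins of compact myelin gave the highest levels of the set. Mbp, whose protein seals the inner faces of the myelin membrane (ENSMUSG00000041607.17, chromosome 18, 82475146 to 82585637, mm10), stood at 13.1 TPM in library 1 against 11.8 in library 2, a mean of 12.4 ± 0.955 (SD, n = 2). It ranked 3587 among all genes in library 1 against 4230 in library 2. Pmp22, a tetraspan membrane protein whose duplication causes a human demyelinating neuropathy (ENSMUSG00000018217.12, chromosome 11, 63128982 to 63159547), stood at 9.48 TPM in library 1 against 10.4 in library 2 (9.95 ± 0.658). Mbp was the higher of this pair in both libraries by the first quantifier, and the ranges of the pair did not overlap. By the second quantifier they did overlap, with Mbp at 10.9 and 9.95 TPM and Pmp22 at 8.53 and 12.2 TPM in libraries 1 and 2. Their order is therefore not settled.

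The outer-surface genes were several times lower. Prx (ENSMUSG00000053198.13, chromosome 7, 27499324 to 27520214) stood at 2.87 TPM in library 1 against 2.65 in library 2 (2.76 ± 0.156). Drp2 (ENSMUSG00000000223.13, chromosome X, 134404551 to 134456573) stood at 2.02 TPM in library 1 against 1.71 in library 2 (1.87 ± 0.219). Prx was above Drp2 in each library, with a TPM ratio of 1.42 in library 1 against 1.55 in library 2, and of 1.42 and 1.49 by the second quantifier. Per unit length, Mbp exceeded Prx 4.56-fold in library 1 and 4.43-fold in library 2. These ratios between members moved less between libraries than the ratio of Mbp to Pmp22, which was 1.38 in library 1 against 1.13 in library 2.

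Mag, Sox10 and S100b lay below 1 TPM in both libraries. S100b (ENSMUSG00000033208.7, chromosome 10, 76253853 to 76261159) stood at 0.93 TPM in library 1 against 0.77 in library 2, from 39 counts (exact Poisson 95% interval 27.7 to 53.3) and 28 counts (18.6 to 40.5). Sox10 (ENSMUSG00000033006.10, chromosome 15, 79154908 to 79165240, minus strand) had 19 counts in each library (11.4 to 29.7), at 0.27 TPM in library 1 against 0.34 in library 2. Both genes were thus above the floor of 3 counts, with wide counting intervals. Mag (ENSMUSG00000036634.15, chromosome 7, 30899176 to 30914873, minus strand) had 11 counts in library 1 (5.49 to 19.7) against 8 in library 2 (3.45 to 15.8). Its level was 0.21 TPM in library 1 against 0.40 in library 2, opposite in direction to its counts. By the second quantifier Mag had 11 counts in each library but 0.146 TPM in library 1 against 0.931 TPM in library 2, of which the 338-base transcript Mag-206 took 0.496 TPM from 2 counts. The level of Mag is therefore poorly known. S100b exceeded Sox10 and Mag without overlap by the first quantifier, while Sox10 and Mag overlapped each other. By the second quantifier S100b also overlapped Mag.

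**Figure D1:**
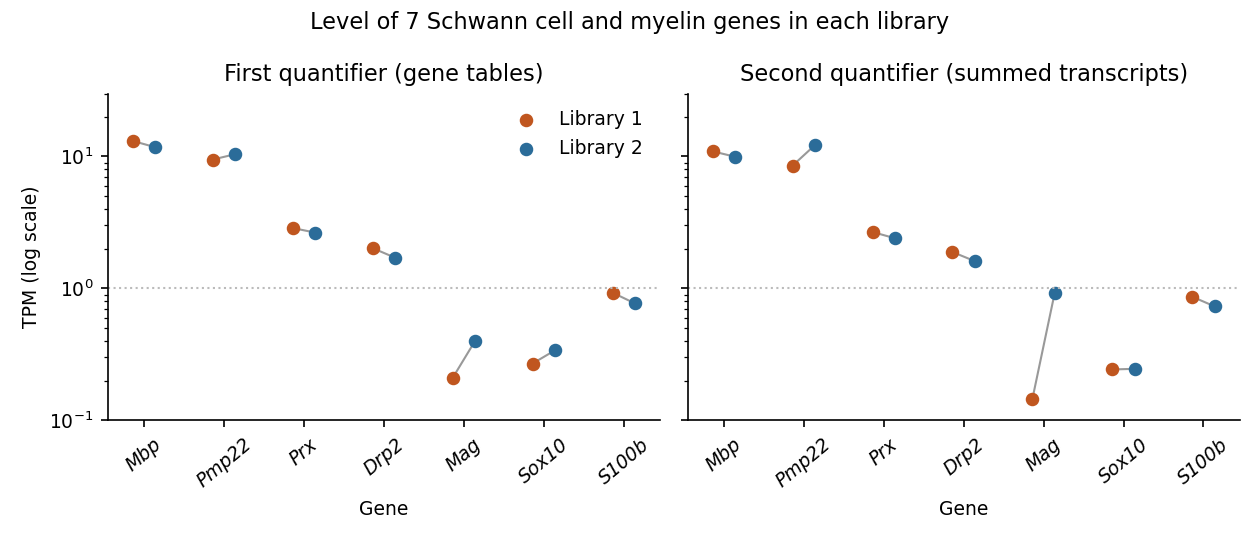
TPM of the 7 genes in library 1 and library 2 on a log axis, by the first quantifier and by the second. Points joined by a line are the 2 libraries of 1 gene and the dotted line marks 1 TPM. Mbp and Pmp22 lie near 10 TPM and Mag, Sox10 and S100b below 1 TPM in both libraries, and Mag is the gene whose libraries lie farthest apart.

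Summed over the 7 genes, the level was 28.9 TPM in library 1 against 28.0 in library 2 (28.5 ± 0.601, SD, n = 2), of which Mbp, Pmp22, Prx and Drp2 held 95.1% and 94.6%. By the second quantifier the sum was 25.3 TPM in library 1 against 28.1 in library 2 (26.7 ± 1.97), so which library had the higher sum depended on the quantifier. By the first quantifier the sum was 0.00738% of all nuclear protein-coding TPM in library 1 against 0.00628% in library 2. In counts the set held 2091 in library 1 against 1663 in library 2. By level alone, the protein-coding genes nearest to Mbp over the 2 libraries, by Euclidean distance on log2(TPM + 1), were Egln3 at 13.2 and 11.8 TPM, Stk24 at 12.9 and 11.6 TPM and Dhrs1 at 13.0 and 12.1 TPM. With 2 libraries no correlation of patterns could be given, and the likeness is one of level.

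Between libraries, most of the set was higher in library 1 relative to other RNA. Ratios are log2 of library 1 over library 2, from TMM-scaled counts (edgeR's scaling for unequal RNA composition), with an exact binomial 95% interval that covers counting error only. Drp2 had 394 counts in library 1 against 259 in library 2, a log2 ratio of 0.57 (0.34 to 0.80), or 1.49-fold. Prx had 426 counts in library 1 against 333 in library 2, a log2 ratio of 0.32 (0.11 to 0.53). Mbp had 731 counts in library 1 against 578 in library 2, a log2 ratio of 0.31 (0.15 to 0.47). For these 3 genes the interval lay above 0.

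Pmp22 had 471 counts in library 1 against 438 in library 2, a log2 ratio of 0.07 (-0.12 to 0.26). S100b had a log2 ratio of 0.44 (-0.29 to 1.2), Mag of 0.40 (-1.02 to 1.94) and Sox10 of -0.03 (-1.03 to 0.96), and the interval of each of these 4 genes held 0. The sign of 3 of them depended on the scaling or quantifier: Pmp22 was at -0.14 on deposited TPM, Mag at -0.93 on deposited TPM and -0.03 by the second quantifier, and Sox10 at 0.03 with spike-in scaling and 0.23 by the second quantifier. In all, 6 of 7 genes were higher in library 1, against 49.8% of the 11124 genes with a mean of at least 1 TPM, and 5 of 7 were at least 1.2 times higher, against 11.5%. Of the 7, 4 reached that mean and Mag, Sox10 and S100b did not, so the 5 include Mag and S100b from below the mean used for the 11124 genes. The 4 that reached it were all higher in library 1. Among them Mbp, Prx and Drp2 were at least 1.2 times higher, and Pmp22 was 1.05 times higher. The median log2 ratio of the 7 was 0.32, against -0.00071 over the 11124 genes, whose 10th and 90th percentiles were -0.26 and 0.29. On deposited TPM, whose median over all genes was -0.17 and in which 7SL RNA held 35.1% of library 1 against 26.8% of library 2, 4 of 7 genes were higher in library 1 and Pmp22, Mag and Sox10 were lower. Relative to that median, 5 of 7 genes were higher. In bulk tissue, fewer Schwann cells and less RNA per cell cannot be told apart.

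**Figure D2:**
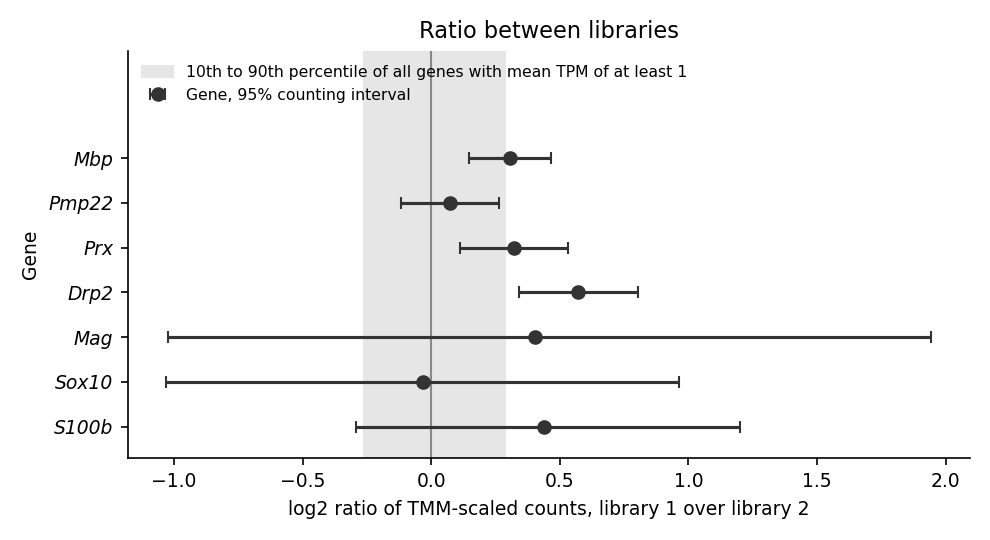
Log2 ratio of TMM-scaled counts of library 1 over library 2 for the 7 genes. Points are ratios, bars are exact binomial 95% counting intervals and the grey band spans the 10th to 90th percentile of 11124 genes. The intervals of Mbp, Prx and Drp2 lie above 0, and that of Drp2 lies wholly above the band.

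Mbp has 2 main groups of annotated transcripts. Those of the upstream start (82475146 to 82475370) are the golli transcripts, known from T cells and neurons, and those of the downstream start (82554470 to 82554580) code for the classic proteins of myelin. The downstream start held 93.6% of Mbp TPM in library 1 against 84.6% in library 2 (89.1 ± 6.35), and the upstream start the remaining 6.42% and 15.4%. By the second quantifier the downstream start held 81.6% in library 1 against 66.6% in library 2. The classic transcripts were thus the larger part in both libraries and by both methods, and the upstream share was the larger in library 2 by both. As levels, the downstream start stood at 12.3 TPM in library 1 against 9.94 in library 2, and the upstream start at 0.84 and 1.81 TPM.

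Within the downstream start, transcripts differ by a 78-base exon (82561778 to 82561855), whose inclusion marks early myelination in rodents, and by a 123-base exon (82578936 to 82579058). Mbp-211, which has neither exon and codes for 128 residues, held 45.1% of Mbp TPM in library 1 against 61.9% in library 2. Mbp-212, with the 123-base exon alone and 169 residues, held 34.0% in library 1 against 11.2% in library 2. The authors' deposited table gave Mbp-212 264.8 counts in library 1, with a posterior SD of 42.6 for the assignment of reads, and 68.2 counts with an SD of 27.2 in library 2. The second quantifier gave the same direction for Mbp-212, at 35.0% in library 1 against 17.7% in library 2, but put Mbp-211 at only 24.6% and 31.5%.

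Transcripts of the downstream start with the 78-base exon held 14.5% of Mbp TPM in library 1 against 11.5% in library 2, and 21.9% and 17.4% by the second quantifier. They were the smaller part by both methods. Mbp-215, with this exon and 154 residues, took 21.9% and 17.4% in the second quantifier but 5.19% and 0% in the first. Mbp-209, with both exons and 195 residues, appeared only in library 2 of the first quantifier, at 11.5%, from 19.1 counts. Of 16 annotated Mbp transcripts, 9 were at 0 TPM in both libraries by both methods. Mbp-211 led in both libraries of the first quantifier and in library 2 of the second, where Mbp-201 of the upstream start (250 residues) followed at 28.7%. In library 1 of the second quantifier Mbp-212 led, so the main transcript of Mbp is not settled.

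**Figure D3:**
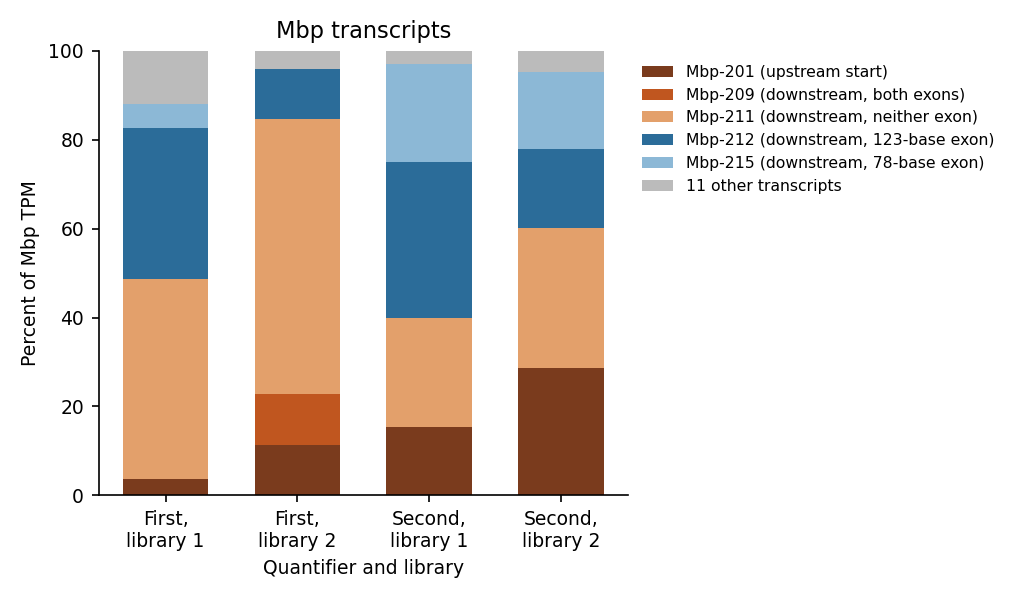
Percent of Mbp TPM held by each transcript that reached 10% in any column, for both quantifiers and libraries, with the other 11 transcripts in grey. Mbp-211 takes the largest part in the first quantifier, at 45.1% in library 1 against 61.9% in library 2, and the blue part of Mbp-212 is smaller in library 2 than in library 1 by both methods.

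Pmp22 has alternative first exons that give the same protein of 160 residues. The upstream start (63128982) is the one used by myelinating Schwann cells, and the middle start (63131512) is used in many tissues outside nerve. The middle start held most of Pmp22, at 5.88 TPM in library 1 against 8.48 in library 2, or 62.0% and 81.5% of its TPM. The upstream start stood at 3.01 TPM in library 1 against 1.02 in library 2, or 31.8% and 9.80%. By the second quantifier the middle start held 54.4% in library 1 against 65.3% in library 2, and the upstream start 41.4% and 8.43%.

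The total counts of Pmp22 were near equal, at 471 in library 1 against 438 in library 2, and 506 against 492 by the second quantifier. Its total TPM by the second quantifier was less even, at 8.53 in library 1 against 12.2 in library 2. Within the gene, both methods put the upstream transcript higher in library 1 and the middle transcript higher in library 2. Both methods divide shared reads, so this split is an estimate. The counts assigned to the upstream transcript Pmp22-204 were 157.7 in library 1 against 46.2 in library 2, with posterior SDs of 43.6 and 47.1 in the authors' deposited table. In library 2 the upstream transcript was thus within 1 SD of 0. The middle transcript Pmp22-201 had 304.1 counts in library 1 against 378.9 in library 2, with posterior SDs of 43.4 and 47.3. Whether these differences exceed the error of read assignment was not tested. The annotated starts farther downstream (63132569 to 63133068) held 6.22% in library 1 against 8.74% in library 2, and 4.17% and 26.3% by the second quantifier. Most of the last value was Pmp22-205, a non-coding transcript, at 17.3%.

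Prx gives a long protein of 1391 residues, L-periaxin, and a short one of 148, S-periaxin, whose transcript keeps the last intron. The long reading frame held 76.3% of Prx TPM in library 1 against 92.8% in library 2, and 78.0% and 94.4% by the second quantifier. The short form, Prx-203, stood at 0.68 TPM in library 1 against 0.19 in library 2, from 109.7 counts with a posterior SD of 26.4 and 26.9 counts with an SD of 17.0. Reads of unspliced Prx RNA fall in the same intron, and in total RNA these sources cannot be told apart. The quantifiers split the long form differently: the first gave all of it to Prx-202, and the second gave Prx-201, which starts inside the gene, 0.947 TPM in library 1 against 1.25 in library 2.

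**Figure D4:**
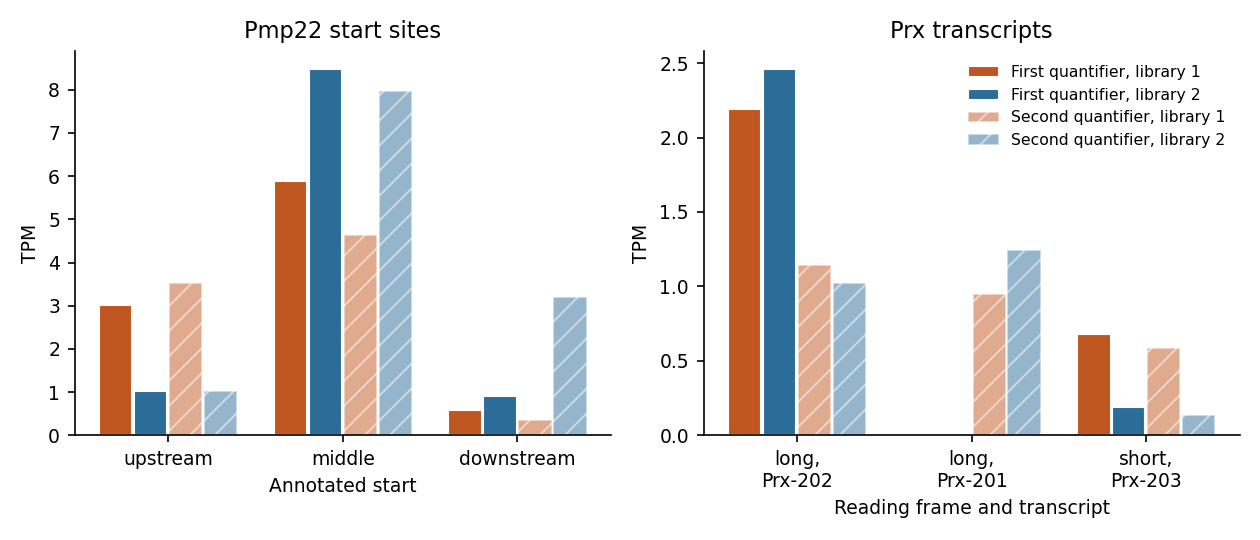
TPM of Pmp22 by annotated start and of Prx by transcript, in library 1 and library 2 by the first quantifier (solid) and the second (hatched). The upstream Pmp22 start and the short Prx transcript are higher in library 1 by both quantifiers, and the middle Pmp22 start is higher in library 2.

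Drp2 came mostly from 1 start. Transcripts of its upstream start (134404551 to 134404802) held 91.6% of Drp2 TPM in library 1 against 89.0% in library 2, and 88.2% and 86.9% by the second quantifier. Drp2-206, which codes for 957 residues, led at 1.58 TPM in library 1 against 1.09 in library 2. Drp2-202, which codes for 981 residues, held 13.4% in library 1 against 25.6% in library 2, and Drp2-201, which retains an intron, held 11.8% in library 1 of the second quantifier. S100b has a single annotated transcript, for a protein of 92 residues. Sox10 was given to Sox10-201 in both libraries by the first quantifier, at 81.5% in library 1 against 70.6% in library 2, and the rest to Sox10-204, which retains an intron. The second quantifier gave all of it to Sox10-203 in library 1 and to Sox10-201 in library 2, and with 24 and 20 counts the split is not settled. The Mag counts were spread over Mag-201, Mag-205 and Mag-207 in library 1 and over Mag-204, Mag-205 and Mag-206 in library 2, and Mag-208 was reached by the second quantifier alone. They are too few for any statement on the forms of its protein.

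The 7 genes were set beside wider lists of the same biology, 69 genes in all, chosen with earlier results of these data known. Of the 69, 30 stood at 1 TPM or more in both libraries, and 29 by the second quantifier. Many of these 30 are also genes of the muscle fibre or its matrix, such as Dag1 and Dmd. Of 31 genes with a mean of at least 1 TPM, 19 were higher in library 1, 6 of them at least 1.2 times, while 1 was at least 1.2 times lower, against 49.8%, 11.5% and 10.0% of the 11124 genes. The median log2 ratio of the 31 was 0.02, against -0.00071 over those genes.

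Of 9 compact myelin genes, 4 reached 1 TPM in both libraries, Mbp and Pmp22 among them. Ncmap, Pllp and Mal, small membrane proteins of myelin, had means of 0.795, 0.785 and 0.68 TPM. Cldn19, a claudin of Schwann cell tight junctions, had a mean of 0.41. Pmp2, a fatty-acid-binding protein of peripheral myelin, had 0.48 TPM in library 1 against 0.23 in library 2, from 19 and 8 counts. These 5 genes lay below 1 TPM in both libraries, although Ncmap was at 1.17 and 1.03 TPM by the second quantifier.

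Of 10 genes of non-compact myelin and the node, 4 reached 1 TPM in both libraries. Cnp, an enzyme that keeps cytoplasmic channels open in myelin, stood at 1.69 TPM in library 1 against 2.10 in library 2. Cd81, Cd9 and Mpzl1 were also above 1 TPM but are expressed by many cell types, with means of 34.5, 7.19 and 2.25 TPM. Gjb1, the gap junction protein of Schwann cell incisures, had 6 counts in library 1 against 5 in library 2, or 0.13 TPM in each. Of the 4 genes above 1 TPM, 1 was higher in library 1, against 49.8% of the 11124 genes. None was at least 1.2 times higher or lower, against 11.5% and 10.0%, and 4 genes are too few to differ from those shares.

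Of 12 genes of the periaxin and dystroglycan complex and the basal lamina, 11 reached 1 TPM. Dag1, dystroglycan, which Drp2 binds in Schwann cells and dystrophin binds in fibres, stood at 79.7 ± 5.51 TPM. Dmd, dystrophin, stood at 37.7 ± 0.806 and the laminin chain gene Lama2, shared by the basal laminae of fibres and Schwann cells, at 14.4 ± 1.00. Sgcb, Sgcd, Utrn, Lama4 and Itga6 had means of 31.7, 27.2, 7.11, 5.02 and 4.07 TPM. Itgb4, the integrin chain of mature Schwann cells and of perineurium, stood at 1.65 TPM in library 1 against 1.87 in library 2. Of these 11, 2 were at least 1.2 times higher in library 1, Prx and Drp2 themselves, against 11.5% of the 11124 genes. None of the 11 was 1.2 times lower, against 10.0%.

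Of 12 transcription factors, 5 reached 1 TPM: Tead1, Zeb2, Yap1, Nab1 and Nab2, with means of 64.2, 15.8, 14.2, 4.36 and 1.24 TPM. These are expressed well beyond Schwann cells. Egr2, the factor that drives myelination, had 20 counts in library 1 against 25 in library 2, at 0.29 and 0.60 TPM. Foxd3, of the neural crest, had a mean of 0.49 TPM, and Pou3f1, of promyelinating cells, 0.115. Sox2, Pou3f2 and Tfap2a, of immature cells, had at most 2 counts in either library. The lineage factors Sox10, Egr2, Foxd3 and Pou3f1 thus all lay below 1 TPM.

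Of 7 axon signals and receptors, Erbb3, the neuregulin receptor of Schwann cells, stood at 1.02 TPM in library 1 against 1.21 in library 2, and Itgb1, which most cells express, at 64.6 ± 4.41. Ngfr, the p75 receptor of repair and immature cells, had 39 counts in library 1 against 21 in library 2, at 0.38 and 0.24 TPM. Of 8 genes of myelin lipid synthesis, Cers2 and Srebf2 were above 1 TPM in both libraries, with means of 6.15 and 4.47. The myelin-specific lipid enzymes Ugt8a and Fa2h had means of 0.225 and 0.125 TPM.

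Of 12 genes of non-myelinating and repair Schwann cells, 3 reached 1 TPM in both libraries. Jun, a factor of the repair state that many cells induce, stood at 31.8 TPM in library 1 against 22.8 in library 2, a log2 ratio of 0.66 (0.57 to 0.74). Ncam1, which denervated fibres also express, stood at 4.72 TPM in library 1 against 6.56 in library 2. Scn7a and Cdh19 had means of 0.98 and 0.46 TPM. Gfap had 3 and 1 counts, and Shh had 0 in both libraries, which allows up to 0.0847 CPM in library 1 against 0.0873 in library 2 at 3 counts.

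**Figure D5:**
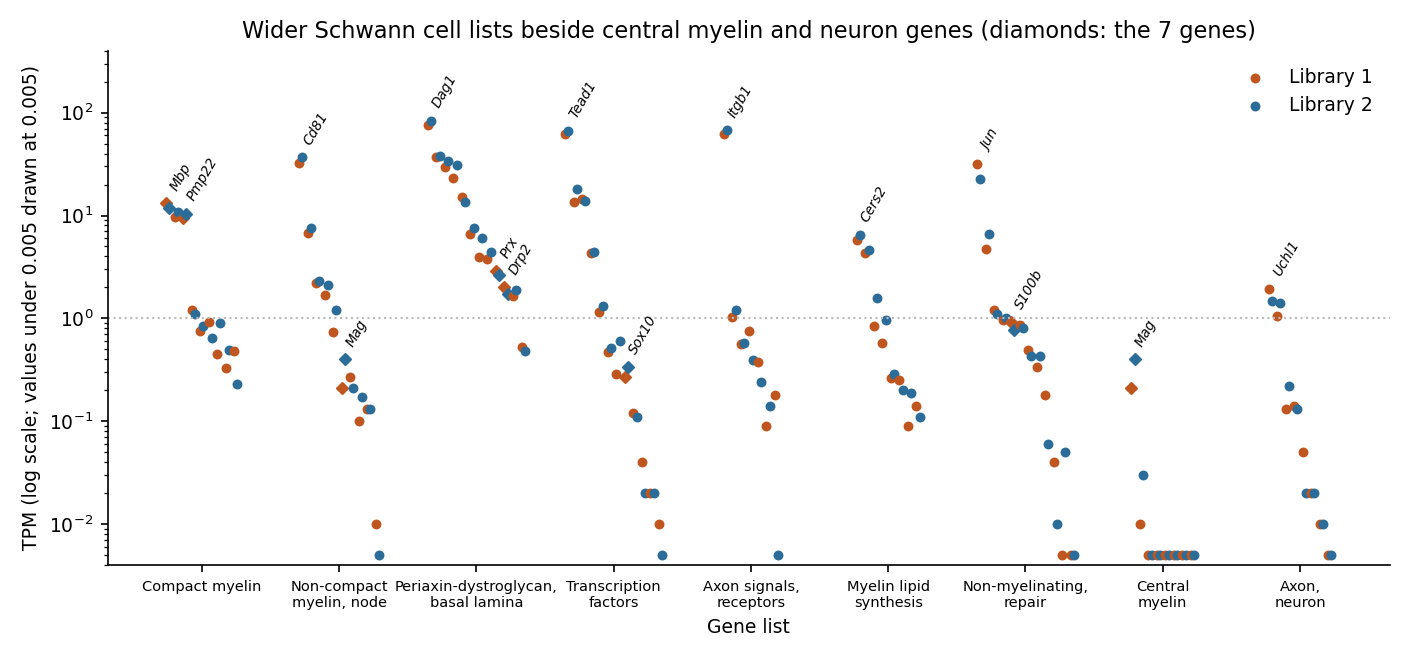
TPM in library 1 and library 2 of the genes of 7 Schwann cell lists and of central myelin and neuron lists, on a log axis. Diamonds are the 7 genes, names mark them and the highest gene of each list, and the dotted line marks 1 TPM. Compact myelin genes reach about 10 TPM, and 6 of 8 central myelin genes lie at the bottom of the axis with 0 counts in both libraries.

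Markers of other cells that could hold these RNAs were read beside them. Of 8 genes listed for central myelin, Mog, Opalin, Olig1, Olig2, Nkx2-2 and Hapln2 had 0 counts in both libraries by the first quantifier, Mobp had 1 count in library 1 against 2 in library 2, and the other, Mag, is also a peripheral gene. Oligodendrocyte markers were thus at or near 0. Of the melanocyte genes, which share Sox10, Mlana had 0 counts in both libraries and Dct had 14 and 13. The neuron list of 8 genes summed to 3.34 TPM in library 1 against 3.30 in library 2, with Uchl1 and Stmn2 above 1 TPM. The other 6 were below 1 TPM. Of these, Chat had 0 counts in both libraries, Nefl 5 and 2, Nefm 2 and 2, and Nefh 1 and 1. Prph had 7 and 9 counts and Snap25 6 and 5.

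The adipocyte list, whose cells can express S100b, summed to 580.9 TPM in library 1 against 750.0 in library 2, and 5 of its 6 genes were above 1 TPM. Most of that was Car3, which muscle fibres also express, at 464.9 TPM in library 1 against 638.0 in library 2, while Adipoq stood at 8.17 and 10.0 TPM. The chondrocyte list, another source of S100b, summed to 5.67 and 5.56 TPM, nearly all of it Comp, with Acan at 1 and 3 counts. The fibroblast and nerve sheath list summed to 140.5 TPM in library 1 against 159.0 in library 2, with 6 of 8 genes above 1 TPM, and fibroblasts are among the cells that express Pmp22. By TMM-scaled counts 3 of these 6 genes were higher in library 1, as were 2 of the 5 adipocyte genes, against 49.8% of the 11124 genes. At least 1.2 times higher in library 1 were 2 of the 6 and 1 of the 5, against 11.5%. At least 1.2 times lower were 2 of the 6 and 2 of the 5, against 10.0%. The part of these cells in the levels of S100b and Pmp22 was not tested.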

How the data were processed

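Total RNA libraries were made from 300 ng of RNA each with a directional kit and ERCC spike-ins, per the labels. The authors' deposited tables hold 1 library each and were made on mm10 with the GENCODE M21 annotation, per the deposited read-me (software not given in the sources used). Gene and transcript tables with expected counts (the first quantifier) came from a transcriptome alignment, and tables with estimated counts (the second quantifier) from the reads, per the read-me. Expected counts in the deposited tables are not whole, because shared reads are divided. TPM as deposited sums over every entry, spike-ins included. The deposited transcript tables also give each transcript's percent within its gene; shares here were recomputed from TPM. Reads of CAST alleles were assigned to the mm10 reference, and the effect was not tested.

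Symbols came from the transcript names, and all 55536 genes matched the annotation. Expected counts were rounded and scaled with edgeR 4.0.16 (TMM, genes with at least 1 CPM in both libraries), and 0.5 was added for ratios. DESeq2 1.42.0 size factors were an alternative. The ratio script was tested on simulated data. Starts within 300 bases were grouped, a choice made after seeing the transcript values. Exact binomial and Poisson 95% intervals and floors of 3 counts cover counting error only; a 0 count allows 0.0847 CPM in library 1 and 0.0873 in library 2. Members, lists and motifs were chosen with earlier results of these data known. Genes were named if they were members, if their mean was at least 1 TPM in a list, or if they were compact myelin or transcription factor genes; other list genes (such as Gjb1, Ugt8a, Ngfr, Gfap) were named after their values were seen. Some list genes that enter the counts are not reported here by name. Mbp's nearest 3 genes and transcripts of at least 10% were named.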

Additional observations from a re-analysis of the deposited data

How the results depend on the processing

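With 2 libraries of 1 group no test was made. The summed level of the 7 genes, 28.5 TPM, was 26.7 TPM by the second quantifier (25.3 in library 1 against 28.1 in library 2, the opposite order to the first) and 41.9 TPM when TPM was rescaled without 7SL RNA and spike-ins; without either library it lay between 28.0 and 28.9. The share of Mbp-211 in Mbp TPM, 53.5% on average, was 28.1% by the second quantifier and 45.1 to 61.9% without either library. The share of the downstream Mbp start, 89.1%, was 74.1% by the second quantifier and 84.6 to 93.6% without either library. The upstream Pmp22 share, 20.8%, was 24.9% by the second quantifier and 9.80 to 31.8% without either library. The median log2 ratio of the 7 genes ranged from 0.12 (deposited TPM) to 0.39 (spike-in total), and from 0.22 to 0.32 relative to all genes. The number higher in library 1 ranged from 4 (deposited TPM) to 7 (spike-in total), with Sox10 at 0.03 under spike-ins and 0.23 by the second quantifier, where Mag was at -0.03. The median of all genes moved with the scaling too, from -0.17 (deposited TPM) to 0.06 (spike-in total). Counted against that median, 5 of 7 genes were higher on deposited TPM and 6 of 7 under spike-ins, where Sox10 was below it. Of the 42 ratios of single genes under alternatives, 40 stayed within the counting interval, and Pmp22 at -0.14 and Drp2 at 0.24 on deposited TPM did not. Those 2 values carry the shift of deposited TPM, whose median over all genes was -0.17, while the intervals are from TMM-scaled counts. The wider list had 29 to 39 genes at the threshold, 39 with a threshold of 0.5 TPM. A ratio between libraries could not be had with either library left out. No paired analysis was possible because both libraries belong to 1 group. Depth limits Mag, Sox10 and S100b, at 39 counts or fewer.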
